A study of Mus musculus with 9 samples.

Results

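The receptors that carry thrombin, ADP, ATP, thromboxane, prostacyclin and adrenaline signals to platelets and vessel walls were examined in mouse bone marrow (BM). The cells were sorted and labelled as endothelial cells (ECs). The genes were chosen by name: F2r, F2rl1, F2rl2, F2rl3, P2ry1, P2ry12, P2rx1, Tbxa2r, Ptgir and Adra2a, which are 10 of the 46078 genes in the deposited count table. Libraries came from CD45-Ter119-CD31+ cells of normal wild type B6 mice, split at sorting by the surface protein Sca-1 into 4 Sca-1+ and 5 Sca-1- libraries, with no age in the labels. All are labelled wild type, but the titles of 1 Sca-1+ library (13) and 3 Sca-1- libraries (10, 14 and 22) also carry the stem CD452, in library 10 without its letters, which the labels do not explain. Libraries 15 and 16 share a number in their titles, read here as that of a mouse, which the titles do not state. The paper takes Sca-1high ECs as those of arteries and arterioles and Sca-1low ECs as those of sinusoids. No treatment, transgene or deletion distinguishes the groups, so the comparison asks how receptor mRNA differs between the sorted fractions of normal marrow. Libraries are named by the number that ends their label, 7, 13, 15 and 19 for Sca-1+ and 8, 10, 14, 16 and 22 for Sca-1-, and values below follow that order.

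Thrombin acts on cells through protease-activated receptors, G protein-coupled receptors whose outer end is cut to uncover a built-in (tethered) ligand. In the mouse, platelets answer thrombin through F2rl3 with F2rl2 as its cofactor, whereas F2r is the main thrombin receptor of endothelium and F2rl1 is cut by trypsin-like proteases. ADP reaches platelets through P2ry1, coupled to Gq and calcium release, and through P2ry12, coupled to Gi and the target of the clopidogrel class of drugs, while P2rx1 is an ATP-gated ion channel. Thromboxane, which drives aggregation and vessel constriction, binds Tbxa2r, prostacyclin, which opposes both, binds Ptgir, and adrenaline acts on platelets through Adra2a. Megakaryocytes, the marrow cells that shed platelets, make the mRNA of platelet receptors and also carry CD31.

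The tethered ligand is what separates the protease-activated receptors in sequence, so its coding bases are shown for each gene. Each stretch lies in exon 2 of the GENCODE M21 transcript on GRCm38 and was found as the only arginine or lysine within the searched outer end that is followed by serine or glycine and then by phenylalanine, leucine or tyrosine. The cut falls just before the capitals, which mark the first 18 bases of the ligand, and 12 bases on either side are in lower case.
F2r, chr13:95604873-95604914, minus strand: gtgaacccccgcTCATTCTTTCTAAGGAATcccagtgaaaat
F2rl1, chr13:95514229-95514270, minus strand: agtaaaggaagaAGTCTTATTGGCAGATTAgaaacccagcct
F2rl2, chr13:95700548-95700589, plus strand: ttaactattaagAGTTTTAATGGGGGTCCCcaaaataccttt
F2rl3, chr8:72762312-72762353, plus strand: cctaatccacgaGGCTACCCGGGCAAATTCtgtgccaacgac
The ligand began at codon 42 of 430 in F2r, codon 39 of 399 in F2rl1, codon 38 of 369 in F2rl2 and codon 60 of 396 in F2rl3. F2rl1, F2r and F2rl2 lie side by side on chromosome 13, with 76575 bases between F2rl1 and F2r, 78365 bases between F2r and F2rl2, and no protein-coding gene lying wholly in either gap. F2rl3 lies apart from them on chromosome 8.

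Libraries held 21581653 to 25959818 counts, and 3 counts, taken as the floor, corresponded to 0.0996 to 0.209 CPM (counts scaled to a common library size with edgeR's TMM factors). The gene for Sca-1 itself, Ly6a, was at 1133 ± 187 CPM (SD, n = 4) in Sca-1+ and 0.678 ± 0.524 CPM (SD, n = 5) in Sca-1- libraries, as the sort selects. Pecam1, which encodes CD31, was at 1399 ± 261 (SD, n = 4) and 836 ± 613 CPM (SD, n = 5). The other endothelial markers stood apart. Together 25 of them took 1.78% to 2.45% of the counts of a Sca-1+ library and 0.127% to 0.160% of a Sca-1- library, 24 of the 25 were higher in Sca-1+ libraries and 0 lower, and Cdh5, a defining endothelial cadherin, was at 264 ± 27.2 (SD, n = 4) against 7.14 ± 3.92 CPM (SD, n = 5). In contrast, 16 megakaryocyte markers took 0.00504% to 0.0117% of the counts of a Sca-1+ library and 3.18% to 6.94% of a Sca-1- library, and 16 of 16 were lower in Sca-1+ libraries. No marker of these lists was at or under the floor in every library of either fraction. The Sca-1- libraries, labelled endothelial, thus held more megakaryocyte than endothelial marker counts. Of 16 leukocyte markers, 14 were lower in Sca-1+ libraries (0.0293% to 0.0502% of counts against 0.228% to 0.502%), as were 9 of 12 erythroid markers (0.0152% to 0.0301% against 0.0855% to 0.144%), while 9 of 12 smooth muscle and pericyte markers were higher (0.0797% to 0.136% against 0.00118% to 0.00924%). Of 12 marrow stromal markers 3 were higher and 3 lower. Their summed share was nevertheless lower in every Sca-1+ library (0.0848% to 0.328% of counts against 0.329% to 2.88%). Of 8 neutrophil markers 0 were higher and 1 lower. Sca-1+ library 19 held 0.229% of its counts on 8 plasma cell and B cell genes, against at most 0.000348% in the other Sca-1+ libraries, and 0.087% on 8 neutrophil genes, against at most 0.00692%. Its mean log2 CPM over the leukocyte markers was also the highest of the Sca-1+ libraries, at 2.67 against at most 1.01, although their summed share was the lowest there.

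Of the 10 receptors, 6 were lower in Sca-1+ than in Sca-1- libraries, 0 were higher and 4 did not pass the test. The 6 were F2rl2, F2rl3, P2ry1, P2ry12, P2rx1 and Ptgir. In edgeR's quasi-likelihood test at an adjusted p under 0.05, 21.4% of the 15937 genes tested were called lower in Sca-1+ libraries and 23.3% higher. The receptors were chosen with earlier results of these data known, so these shares are no test of them as a set. All 10 receptors passed the filter on low counts, which asks for counts in as many libraries as the smaller fraction holds, and their median log2 fold change (Sca-1+ over Sca-1-) was -4.69, against 0.07 over all genes tested. In each of the 6, every Sca-1+ library lay below every Sca-1- library, an arrangement seen in 18.8% of all genes tested. Because these are bulk libraries, fewer cells of a type and less RNA per cell cannot be told apart. The 6 moved in the direction of the megakaryocyte markers and of most leukocyte and erythroid markers given above. Of 6 plasma cell and B cell markers tested, 4 were lower in Sca-1+ libraries too. The part of any of these cells in the result was not tested. Running numbers at the start of the labels fall in separate series for Sca-1+ and Sca-1- libraries, and any batch they mark cannot be told apart from the fraction.

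**Figure D1:**
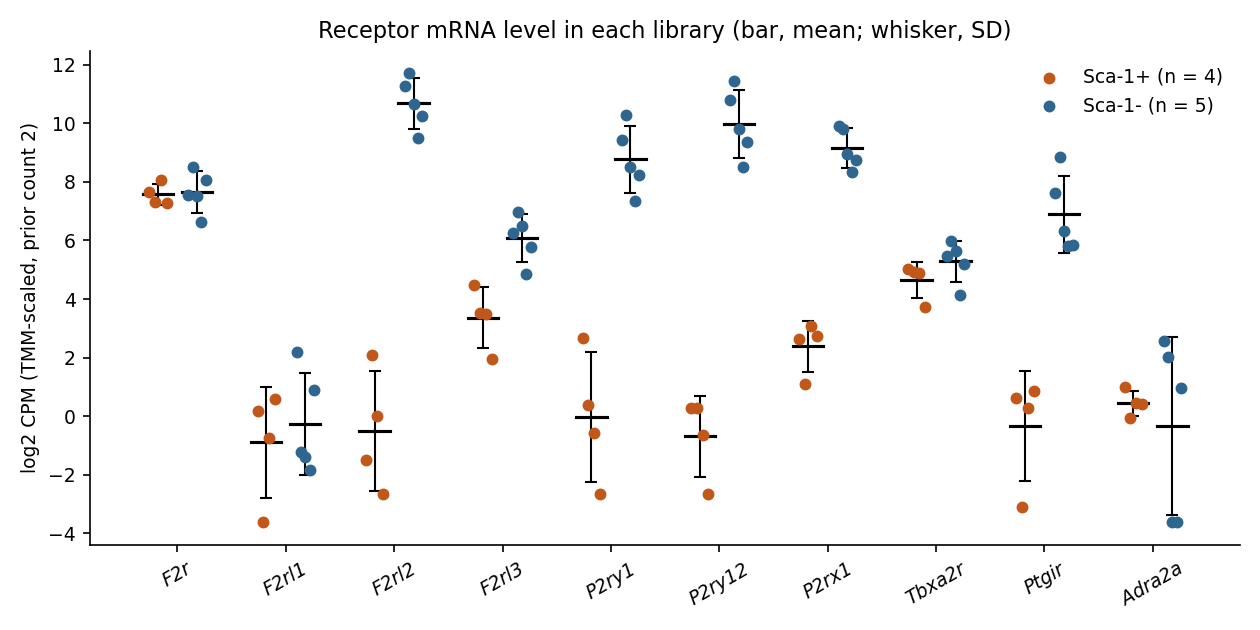
Level of each receptor in each library as log2 CPM (TMM-scaled, prior count 2, vertical axis), with Sca-1+ (n = 4) and Sca-1- (n = 5) libraries side by side, bars at the mean and whiskers of 1 SD. The fractions are apart for F2rl2, F2rl3, P2ry1, P2ry12, P2rx1 and Ptgir and overlap for F2r, F2rl1, Tbxa2r and Adra2a.

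Among the protease-activated receptors, the platelet pair F2rl2 and F2rl3 was lower in Sca-1+ libraries, whereas the endothelial thrombin receptor F2r did not pass the test. F2r (ENSMUSG00000048376, chromosome 13 from 95601803 to 95618487 on GRCm38, minus strand) was counted at 203, 158, 268 and 156 CPM in Sca-1+ libraries and at 190, 365, 181, 98.7 and 271 CPM in Sca-1- libraries. The fractions overlapped, with both the highest and the lowest value in Sca-1- libraries. Means were 196 ± 52.5 (SD, n = 4) and 221 ± 101 CPM (SD, n = 5), a log2 fold change of -0.17 (SE 0.36, 95% interval -0.96 to 0.62, adjusted p = 0.72). Among other settings, the sign turned without Sca-1- library 10, at a log2 fold change of 0.02, and with libraries scaled by their size alone, at 0.30.

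F2rl2 (ENSMUSG00000021675, chromosome 13 from 95696853 to 95702739, plus strand), the cofactor that holds thrombin for F2rl3 on mouse platelets, gave 8, 121, 27 and 2 counts in Sca-1+ libraries. In Sca-1- libraries it gave 40921, 48232, 38646, 21940 and 30103 counts. These correspond to 0.273, 4.12, 0.932 and 0.0774 CPM against 2458, 3367, 1640, 729 and 1226 CPM. Among Sca-1+ libraries F2rl2 was under the floor in library 19 and highest in library 13, and all 4 lay far below every Sca-1- library. The log2 fold change was -10.44 (SE 1.30, adjusted p = 0.00018), and 57 of the 15937 genes tested had a lower one. The gene lies within the body of Iqgap2, a scaffold protein gene on the other strand, without sharing exons. Iqgap2 was lower in Sca-1+ libraries too, at 2.48 ± 0.855 (SD, n = 4) against 189 ± 39.2 CPM (SD, n = 5), a log2 fold change of -6.25 (SE 0.34, adjusted p = 6.3e-06).

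F2rl3 (ENSMUSG00000050147, chromosome 8 from 72761880 to 72763874, plus strand), the receptor that signals for thrombin in mouse platelets, was at 22.5, 11.5, 11.2 and 3.79 CPM in Sca-1+ libraries. In Sca-1- libraries it was at 76.4, 127, 90.5, 28.5 and 54.7 CPM. The fractions did not overlap, but Sca-1+ library 7 and Sca-1- library 16 came close. The log2 fold change was -2.62 (SE 0.55, adjusted p = 0.0034), which is 6.16-fold and the smallest difference among the 6 receptors called. F2rl1 (ENSMUSG00000021678, chromosome 13 from 95511732 to 95525227, minus strand) was scarce, with 219 counts over all 9 libraries. Its levels were 1.06, 0, 0.518 and 1.43 CPM in Sca-1+ libraries and 4.45, 0.349, 0.297, 0.199 and 1.79 CPM in Sca-1- libraries, so the fractions overlapped. The 0 in library 13 allows up to 0.102 CPM at 3 counts, which covers counting error only. No difference in F2rl1 was detectable at this depth (log2 fold change -0.91, SE 1.20, 95% interval -3.58 to 1.77, adjusted p = 0.57), and the sign turned without Sca-1- library 8, at 0.11.

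The composition of the family therefore differed between the fractions. Taking each receptor's level as CPM per kilobase of exon, F2r made up 83.8% to 95% of the family's summed level in Sca-1+ libraries (median 89.7%) and 5.27% to 13.5% in Sca-1- libraries (median 7.21%). The share of F2rl2 was 0.0630% to 3.01% (median 0.291%) against 81.8% to 91.0% (median 86.9%). F2rl3 took 3.87% to 15.5% and 3.55% to 6.01%, ranges that overlap although its level did not. The summed level of the family was 49.1 to 86.3 CPM per kilobase in Sca-1+ libraries and 335 to 1519 CPM per kilobase in Sca-1- libraries. Differences between receptors of a family were added after these levels had been seen. Within a library, log2 CPM of F2rl2 minus that of F2r was -8.10 ± 2.06 (SD, n = 4) in Sca-1+ and 3.03 ± 0.56 (SD, n = 5) in Sca-1- libraries. The difference of -11.12 had an exact permutation p of 0.0079, the smallest these 9 libraries allow (all splits into 4 and 5, two-sided, adjusted p = 0.011 over 10 pairs of receptors). The levels given above fix this p, since F2rl2 lay far apart between the fractions while F2r overlapped, so it adds nothing to them. F2rl3 minus F2r also differed, by -2.62 (exact permutation p = 0.0079, adjusted p = 0.011), and so did F2rl3 minus F2rl2, by 8.50 with the same p. The latter is likewise fixed by the far larger difference of F2rl2. F2rl1 minus F2r, at -8.47 ± 1.86 (SD, n = 4) and -7.93 ± 1.70 (SD, n = 5), did not (exact permutation p = 0.66, adjusted p = 0.66).

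**Figure D2:**
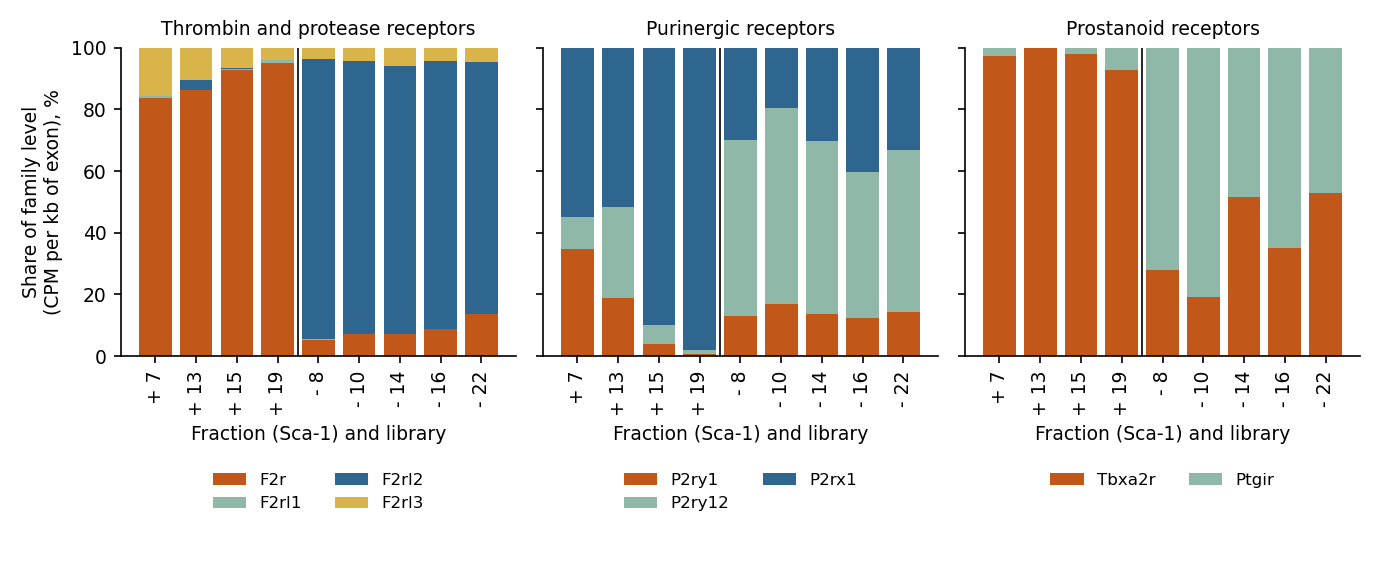
Share of each receptor in its family's summed level per exon length (percent, vertical axis) in each library, with Sca-1+ libraries left and Sca-1- libraries right of the line in every panel. F2r fills 83.8% to 95% of the thrombin and protease receptor bar in Sca-1+ libraries and F2rl2 81.8% to 91.0% in Sca-1- libraries, and Tbxa2r fills 92.9% to 99.9% of the prostanoid bar in Sca-1+ libraries.

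The 3 purinergic receptors were all lower in Sca-1+ libraries. P2ry12 (ENSMUSG00000036353, chromosome 3 from 59216272 to 59262871, minus strand) was at 1.12, 1.12, 0.552 and 0.0774 CPM in Sca-1+ libraries. In Sca-1- libraries it was at 1779, 2819, 887, 367 and 657 CPM. Library 10 was the highest and library 16 the lowest of the Sca-1- libraries, and both lay far above every Sca-1+ library. The log2 fold change was -10.80 (SE 1.07, adjusted p = 5.3e-05), the lowest of the 10 receptors, with 47 genes lower among all tested.

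P2ry1 (ENSMUSG00000027765, chromosome 3 from 61002795 to 61008982, plus strand) was at 6.34, 1.23, 0.587 and 0.0774 CPM in Sca-1+ libraries and at 690, 1261, 367, 163 and 305 CPM in Sca-1- libraries. Library 7 held most of the P2ry1 counts of the Sca-1+ fraction (186, against 36, 17 and 2). Its log2 fold change was -8.07 (SE 1.29, adjusted p = 0.0007). P2rx1 (ENSMUSG00000020787, chromosome 11 from 72999103 to 73015200, plus strand) was at 6.10, 2.04, 8.29 and 6.62 CPM against 961, 896, 493, 324 and 429 CPM. Of the 3, P2rx1 had the steadiest level over Sca-1+ libraries, all of them above the floor, and its log2 fold change was -6.75 (SE 0.59, adjusted p = 3.3e-05).

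Of the summed purinergic level per exon length, P2rx1 held 51.7% to 98.1% in Sca-1+ libraries (median 72.4%) and 19.6% to 40.4% in Sca-1- libraries (median 30.2%). P2ry12 held 1.18% to 29.3% (median 8.30%) against 47.2% to 63.5% (median 56.1%). Differences within a library were again added after the levels above had been seen, so their p-values are not separate evidence from those levels. P2rx1 minus P2ry12 within a library differed by 3.91 on the log2 scale (exact permutation p = 0.0079, adjusted p = 0.011), and P2ry12 minus P2ry1 by -1.87 with the same p. The latter rests on few counts in Sca-1+ libraries, 33, 33, 16 and 2 for P2ry12 and 186, 36, 17 and 2 for P2ry1. Both were under the floor in library 19. Without library 7 the difference was -1.28 and kept its call. P2rx1 minus P2ry1 differed by 2.04, which did not pass (exact permutation p = 0.13, adjusted p = 0.16) but did without Sca-1+ library 7 (2.87, adjusted p = 0.045 in the exact permutation test). In Sca-1+ libraries these shares rest on summed levels of 1.51 to 4.24 CPM per kilobase, against 306 to 1743 in Sca-1- libraries. The values of P2ry12 and P2ry1 are uncertain in part, since exons of both overlap a gene on the other strand and the use of strand in counting is not given in the sources used here. Med12l, which overlaps P2ry12, was at 0.856 ± 0.631 (SD, n = 4) and 39.8 ± 22.7 CPM (SD, n = 5), with 440 to 1040 counts in Sca-1- libraries beside 11062 to 40378 for P2ry12. Gm37035, which overlaps P2ry1, was at 0.418 ± 0.576 (SD, n = 4) and 168 ± 138 CPM (SD, n = 5), a log2 fold change of -8.62 (SE 1.19, adjusted p = 0.00031).

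The opposed prostanoid receptors behaved differently. Tbxa2r (ENSMUSG00000034881, chromosome 10 from 81328731 to 81335172, plus strand) was at 32.4, 30.2, 29.9 and 13.1 CPM in Sca-1+ libraries and at 44.1, 63.0, 49.6, 17.5 and 37.0 CPM in Sca-1- libraries. The fractions overlapped through Sca-1- library 16, and the log2 fold change of -0.68 did not pass (SE 0.38, 95% interval -1.53 to 0.17, adjusted p = 0.17). Without that library it was -0.88 and passed (adjusted p = 0.045 in edgeR's test). Ptgir (ENSMUSG00000043017, chromosome 7 from 16906490 to 16910905, plus strand) was at 1.47, 0.0341, 1.14 and 1.74 CPM in Sca-1+ libraries, the second of these from 1 count. In Sca-1- libraries it was at 198, 462, 80.8, 56.0 and 56.9 CPM. The fractions did not overlap, and the log2 fold change was -7.28 (SE 1.10, adjusted p = 0.00052).

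As a result, Tbxa2r held 92.9% to 99.9% of the summed prostanoid receptor level in Sca-1+ libraries and 19.2% to 53.0% in Sca-1- libraries. Ptgir held 0.0649% to 7.12% and 47.0% to 80.8%. Ptgir minus Tbxa2r within a library was -4.98 ± 2.19 (SD, n = 4) against 1.61 ± 0.96 (SD, n = 5) on the log2 scale, a difference of -6.58 (exact permutation p = 0.0079, adjusted p = 0.011). The levels of Ptgir, far apart between the fractions, and of Tbxa2r, which overlapped, fix this p as well.

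Adra2a (ENSMUSG00000033717, chromosome 19 from 54044151 to 54048982, plus strand) was scarce in both fractions, at 1.91, 0.885, 1.28 and 1.24 CPM in Sca-1+ libraries and 5.83, 3.98, 0, 0 and 1.87 CPM in Sca-1- libraries. It had no count in Sca-1- libraries 14 and 16, which allows up to 0.127 and 0.0996 CPM at 3 counts, while libraries 8 and 10 exceeded every Sca-1+ library. The log2 fold change was -0.80 (SE 1.32, 95% interval -3.74 to 2.14, adjusted p = 0.65), whereas limma voom, which averages on the log scale, gave 1.93. No direction can be given for Adra2a at this depth.

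**Figure D3:**
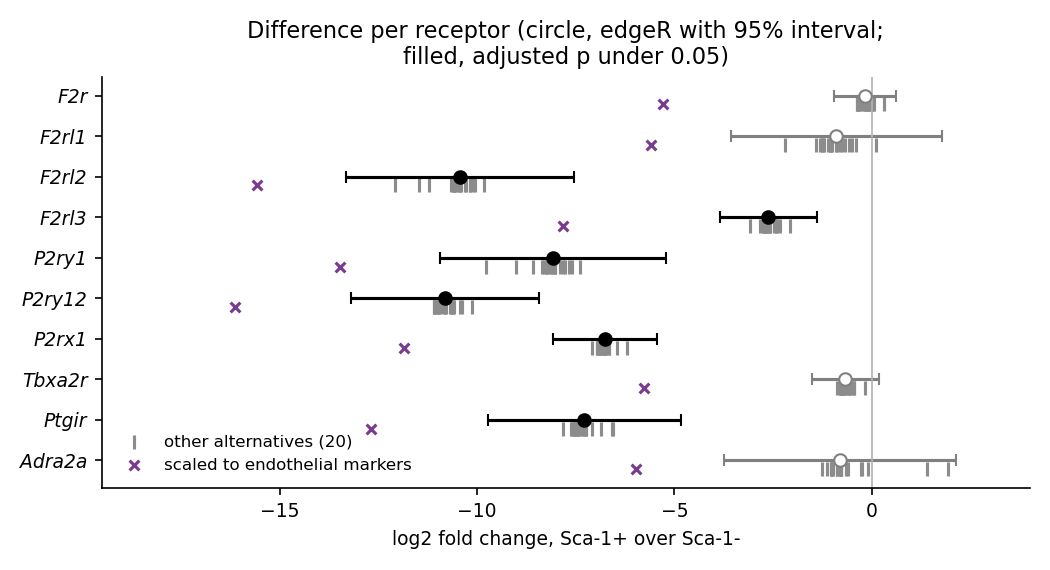
Log2 fold change of each receptor, Sca-1+ over Sca-1- (horizontal axis), with the 95% interval from edgeR, filled where the adjusted p is under 0.05, and the values under 21 alternative settings as smaller marks beneath. The 6 receptors called lie between -10.80 and -2.62, and scaling to endothelial markers moves all 10 to the left.

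Ranked by level per exon length, the order of the receptors differed between the fractions. In Sca-1+ libraries F2r was first at 58.8 ± 15.7 CPM per kilobase (SD, n = 4), followed by Tbxa2r at 13.8 ± 4.65, F2rl3 at 6.13 ± 3.86 and P2rx1 at 2.20 ± 1.01, and each of the first 2 exceeded the next in 4 of 4 libraries. F2rl3 exceeded P2rx1 in 3 of 4. The other 6 receptors had means of 0.274 to 0.540 CPM per kilobase, and no neighbours among them kept their order in all 4 libraries. In Sca-1- libraries F2rl2 was first at 753 ± 417 CPM per kilobase (SD, n = 5), then P2ry12 at 511 ± 392, P2rx1 at 236 ± 110 and P2ry1 at 130 ± 102. Although their SDs overlap, each of the first 3 exceeded the next in 5 of 5 libraries. P2ry1 exceeded F2r, at 66.3 ± 30.3, in 4 of 5, and F2r exceeded F2rl3, at 37.8 ± 18.6, in 5 of 5. Ptgir, at 51.2 ± 51.9, lay above F2r in some libraries and below F2rl3 in others. F2rl3 exceeded Tbxa2r, at 22 ± 8.77 CPM per kilobase, in 5 of 5. F2rl1 and Adra2a were last at 0.517 ± 0.663 and 0.483 ± 0.528 CPM per kilobase.

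The Sca-1- libraries varied among themselves in a shared way. Library 10 had the highest CPM for 7 of the 10 receptors and the most unscaled counts for 4, and library 16 the lowest CPM for 9 and the fewest counts, ties included, for 8. The mean log2 CPM of the 16 megakaryocyte markers was also highest in library 10, at 12.19, and lowest in library 16, at 9.97. When each receptor was taken relative to that mean within its library, the SD over Sca-1- libraries fell from 0.86 to 0.14 for F2rl2, from 1.16 to 0.26 for P2ry12, from 1.13 to 0.28 for P2ry1 and from 0.68 to 0.29 for P2rx1, all on the log2 scale. For Ptgir it fell from 1.32 to 0.55, and for F2rl3 from 0.82 to 0.43. Among the receptors not called, it changed from 0.71 to 0.68 for F2r and from 1.73 to 1.69 for F2rl1. It also fell from 0.70 to 0.49 for Tbxa2r and from 3.06 to 2.49 for Adra2a. TMM factors ranged from 0.581 in library 10 to 1.16 in library 16, and the ratio of the highest to the lowest Sca-1- library for F2rl2 was 4.62 in CPM and 2.20 in unscaled counts. Over Sca-1+ libraries, the SD of F2r was 0.37 in log2 CPM and 0.24 relative to the endothelial markers. This was not particular to F2r, since the SD was smaller relative to these markers for every receptor. It was 0.62 and 0.50 for Tbxa2r, 1.05 and 0.925 for F2rl3, and 1.38 and 1.28 for P2ry12.

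To set each receptor against the cell types, its log2 CPM minus the mean log2 CPM of a marker list in the same library was compared between the fractions (20 relations, exact permutation tests, two-sided, adjusted over the 20). Relative to megakaryocyte markers, F2rl2 was at -1.53 ± 1.61 (SD, n = 4) in Sca-1+ and -0.42 ± 0.14 (SD, n = 5) in Sca-1- libraries, a difference of -1.11 (exact permutation p = 0.22, adjusted p = 0.22). P2ry12 was at -1.71 ± 0.90 and -1.12 ± 0.26, a difference of -0.59 (exact permutation p = 0.17, adjusted p = 0.18), and P2ry1 at -1.06 ± 1.88 and -2.34 ± 0.28, a difference of 1.28 (exact permutation p = 0.13, adjusted p = 0.15). Ptgir differed by 2.86 (exact permutation p = 0.063, adjusted p = 0.079). These differences did not pass the test, which does not show that the receptors and the markers moved alike, and 1 library decided each of these calls. The adjusted p fell under 0.05 without Sca-1+ library 13 for F2rl2 (-1.79) and Ptgir (3.98), without library 7 for P2ry12 (-0.86) and without library 19 for P2ry1 (1.92).

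P2rx1 and F2rl3, both called lower in CPM, were higher relative to megakaryocyte markers in Sca-1+ libraries, by 3.32 and 7.39 on the log2 scale (each exact permutation p = 0.0079, adjusted p = 0.011). Their fall was thus smaller than that of the markers, whose mean differed by -10.09. For F2rl3, the far larger difference of the markers beside its own fixes the p of its relation, which adds nothing to those values. Relative to the 25 endothelial markers, whose mean differed by 4.66, the 6 receptors called lower were at differences of -7.36 (F2rl3) to -15.86 (F2rl2), as their own direction and that of the markers fix. For F2r, F2rl1, Tbxa2r and Adra2a, whose own difference did not pass the test, the level relative to a list mostly repeats the shift of that list and is not read further. F2r, for example, was at -1.04 ± 0.24 (SD, n = 4) and 3.70 ± 1.35 (SD, n = 5) relative to endothelial markers.

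**Figure D4:**
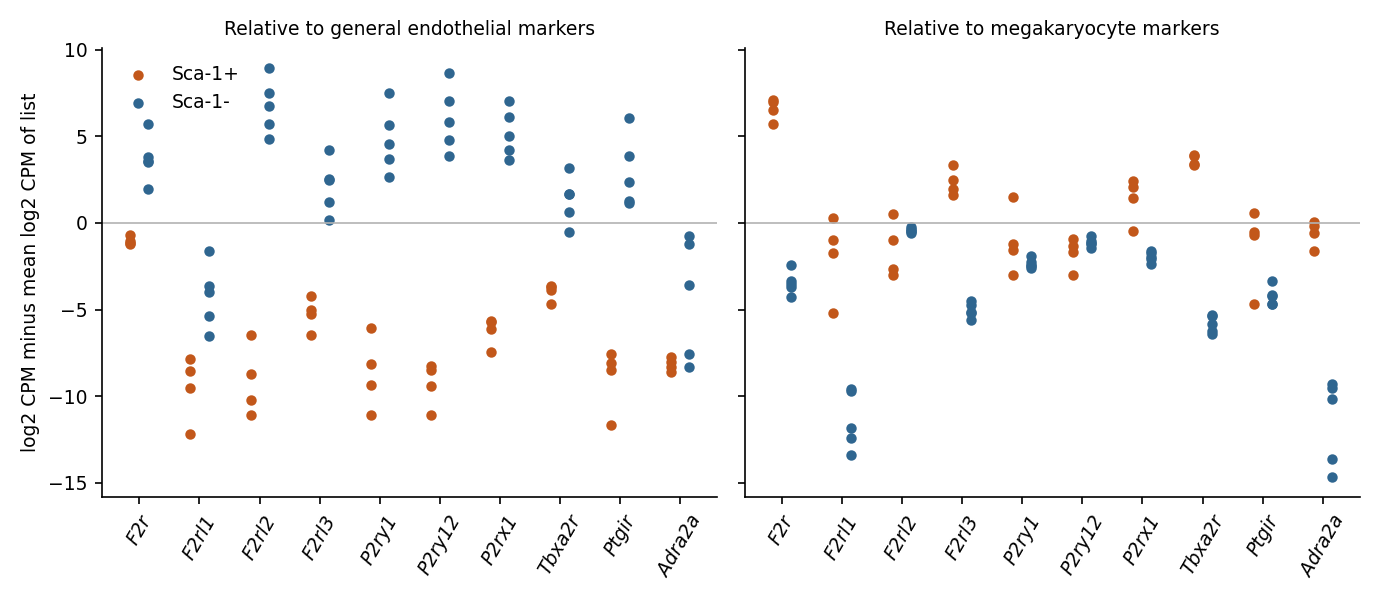
Log2 CPM of each receptor minus the mean log2 CPM of the endothelial markers (left) or the megakaryocyte markers (right) in the same library, 1 point per library. Relative to endothelial markers F2r is higher in all 5 Sca-1- than in all 4 Sca-1+ libraries, and relative to megakaryocyte markers F2rl2 and P2ry12 overlap between the fractions.

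Genes with the most similar pattern were searched by the root mean square distance between log2 CPM values, each centred on its own mean, over the 9 libraries and 9867 genes. For F2rl2 these were Hpse, which encodes heparanase (distance 0.55), Gp6, the platelet collagen receptor (0.59), and Gp1ba, a subunit of the platelet receptor for von Willebrand factor (0.71). For P2ry12 they were Treml1, a receptor stored in platelet granules (0.30), Tmem40 (0.38) and Gp1ba (0.56). Gp6, Gp1ba and Treml1 also belong to the megakaryocyte list. For F2r they were Rbm33 (0.27), Cep68 (0.27) and Sufu, an inhibitor of hedgehog signalling (0.27), which like F2r had similar means in the fractions (Sufu at 18.1 CPM in Sca-1+ and 17.1 CPM in Sca-1- libraries).

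Promoters (250 bases before to 50 after the start, RefSeq, GRCm38.p6) were at hand for 9 of the 10 receptors. They were searched on both strands for the hexamer AGATAA, for its variant ending in G, which is AGATAG, and for both with T as the first letter, that is TGATAA besides the variant TGATAG. All 4 hold the GATA core read by the megakaryocyte and erythroid factor Gata1 and its endothelial relative Gata2. Such a hexamer occurs in 29.8% of 32851 promoters. It was present once in F2rl2 and at 2 places each in F2rl3 and P2rx1, and in no promoter window of F2r, P2ry1, P2ry12, Tbxa2r, Ptgir or Adra2a. The matches are shown in capitals as read along the gene's strand, since these receptors were among those called lower. On the other strand, TTATCT reads as the hexamer AGATAA, while CTATCT reads as the variant AGATAG.
F2rl2, chr13:95696813-95696842, plus strand: ggggtgaggaagAGATAAaagggatatggc
F2rl3, chr8:72761415-72761444, plus strand: cttgccagccacAGATAGgaaatagtgggt
F2rl3, chr8:72761490-72761519, plus strand: aaggctggattgTTATCTaaacaggagctg
P2rx1, chr11:72998895-72998920, plus strand: cagtagctTTATCTctggccctgtgg
P2rx1, chr11:72999029-72999058, plus strand: ctccgcctctgtCTATCTttgggaatttat
The hexamers CCGGAA and, apart from it, CAGGAA, which hold the core read by ETS factors, occur on either strand in 41.4% of promoters, and were present once in F2r and at 2 places each in F2rl3, P2rx1 and a promoter of Tbxa2r, and in no window of F2rl2, P2ry1, P2ry12, Ptgir or Adra2a. P2ry12, the receptor with the lowest log2 fold change, had neither kind in its window, and F2rl2, with a value close to it, had 1 GATA hexamer. A match is a description of letters, and binding was not measured here.

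Among other receptors for nucleotides, adenosine, prostanoids, catecholamines and platelet agonists, calls were about as frequent as among all genes. Of 35, 23 were tested, of which 6 (26.1%) were higher and 4 (17.4%) lower in Sca-1+ libraries, against 23.3% and 21.4% of all genes tested, with a median log2 fold change of 0.33, but 1 was higher and 19 lower once libraries were scaled to endothelial markers. The ADP receptor P2ry13 was at 0.145 ± 0.290 (SD, n = 4) against 6.60 ± 6.29 CPM (SD, n = 5) (log2 fold change -5.50, adjusted p = 0.013). The prostaglandin E receptor Ptger3, which lowers cAMP, was at 1.69 ± 1.37 CPM against 57.6 ± 12 CPM (log2 fold change -5.09, adjusted p = 0.0001). In the other direction, P2ry2, an endothelial receptor for ATP and UTP, was at 22.5 ± 9 CPM against 0.465 ± 0.663 CPM (log2 fold change 5.52, adjusted p = 0.0019). The ATP-gated channel P2rx7 was at 17.8 ± 5.52 CPM against 2.54 ± 3.07 CPM (2.79, adjusted p = 0.0089).

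Genes that act with the receptors were called lower in Sca-1+ libraries in a larger share than all genes, and higher in a like share. Of 124 listed, 112 were tested, of which 52 (46.4%) were lower and 26 (23.2%) higher, against 21.4% and 23.3% of all genes tested, with a median log2 fold change of -0.94, and scaling to endothelial markers gave 102 lower and 0 higher, so genes given as higher below are so on the TMM scale. Megakaryocyte markers and most leukocyte and erythroid markers moved in the same direction, and their part in these counts was not tested. The lists were chosen with earlier results of these data known, so the shares here and below are no test of the roles. Among the G proteins 7 of 22 (31.8%) were lower and 5 (22.7%) higher, against 21.4% and 23.3% of all genes tested. Gnaz, a Gi family subunit of platelets, was at 1.17 ± 1.66 (SD, n = 4) against 758 ± 439 CPM (SD, n = 5) (log2 fold change -9.33, adjusted p = 0.00019), and Gna15, a Gq family subunit of blood cells, had a log2 fold change of -3.06 (adjusted p = 0.0033). Gna11, the Gq family subunit found in most tissues, was at 146 ± 13.4 CPM against 19.4 ± 5.74 CPM (2.91, adjusted p = 3.5e-05), and Gnb4, a beta subunit, had a value of 1.43 (adjusted p = 0.0037).

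The calcium and Rap1 genes, which lie between Gq and integrin activation, had the largest share of lower calls, 14 of 20 (70%), with 5 (25%) higher. Among all genes tested these shares were 21.4% and 23.3%. The median log2 fold change of the 20 was -3.15. Plek, a protein kinase C substrate named pleckstrin, was at 10.6 ± 2.38 (SD, n = 4) against 5664 ± 2653 CPM (SD, n = 5) (log2 fold change -9.07, adjusted p = 1.3e-05), and the kinase Prkca had a value of -6.70 (adjusted p = 2.3e-05). In the other direction, the phospholipase Plcb1 (2.20, adjusted p = 0.001) and the calcium channel Itpr1 (2.34, adjusted p = 0.00016) were higher in Sca-1+ libraries.

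Of 27 cAMP and PI3K genes, which carry the signals of P2ry12 and Ptgir, 14 (51.9%) were lower and 4 (14.8%) higher. Among all genes tested these shares were 21.4% and 23.3%. Prkar2b, a regulatory subunit of protein kinase A, was at 10.3 ± 2.75 (SD, n = 4) against 2956 ± 1898 CPM (SD, n = 5) (log2 fold change -8.16, adjusted p = 2.4e-05), and the cGMP phosphodiesterase Pde5a had a value of -6.27 (adjusted p = 6.9e-05). The adenylyl cyclase Adcy4 (4.62, adjusted p = 0.0008) and the PI3K subunit Pik3r6 (4.80, adjusted p = 0.0018) were higher. Of 20 genes that switch receptors off, 8 (40%) were lower and 6 (30%) higher, against the same 21.4% and 23.3% of all genes tested. Rgs18, a regulator of G protein signalling in platelets, was at 2.26 ± 1.58 CPM against 3216 ± 1897 CPM (-10.47, adjusted p = 2.6e-05), and Rgs10 had a value of -7.29 (adjusted p = 1.5e-05). Rgs4 (5.56, adjusted p = 0.0086) and Rgs5, also known from pericytes (6.13, adjusted p = 0.022), were higher, as were the smooth muscle and pericyte markers given above, whose part was not tested.

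Of the genes that supply or remove the ligands, 5 of 15 (33.3%) were lower and 5 (33.3%) higher, against 21.4% and 23.3% of all genes tested. Tbxas1, which makes thromboxane, was at 0.650 ± 0.379 (SD, n = 4) against 668 ± 486 CPM (SD, n = 5) (log2 fold change -10.00, adjusted p = 4.0e-05). Ptgis, which makes prostacyclin, was also lower in Sca-1+ libraries, at 3.25 ± 2.07 CPM against 33.6 ± 21.5 CPM (-3.37, adjusted p = 0.0027). Entpd1, the enzyme CD39 that breaks down ATP and ADP at the vessel surface, was higher at 267 ± 34.8 CPM against 4.14 ± 3.60 CPM (log2 fold change 6, adjusted p = 0.00053). Procr, the endothelial protein C receptor, which works with thrombin bound to thrombomodulin, was higher at 93.5 ± 4.85 CPM against 4.44 ± 1.58 CPM (4.39, adjusted p = 1.5e-05).

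**Figure D5:**
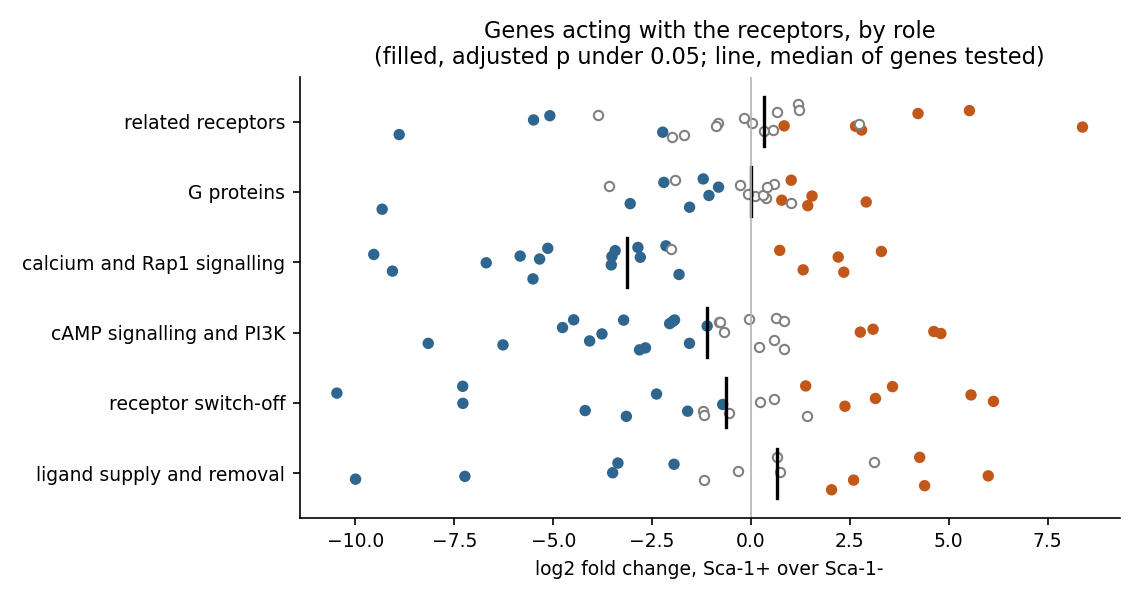
Log2 fold change, Sca-1+ over Sca-1- (horizontal axis), of related receptors and tested genes acting with the receptors, 1 row per role shown, filled where edgeR's adjusted p is under 0.05, with a line at the median of the role. Calcium and Rap1 genes lie furthest to the left (median -3.15), ligand supply and removal has a median of 0.65, and under scaling to endothelial markers 1 related receptor and 0 of the other genes were called higher.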

How the data were processed

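RNA-seq libraries of sorted BM cells labelled as ECs (4 Sca-1+, 5 Sca-1-) were grouped by the deposited labels. They were made from little RNA with a poly(A)-primed full-length kit without molecular identifiers, and their counts hold PCR copies, so that floors cover counting error only. The authors deposited one table of raw, whole-number counts per gene with Ensembl identifiers. The submitters' processing notes name STAR, featureCounts and mm10, while versions, annotation and the use of strand are not given in the sources used here. GENCODE M21 (GRCm38) gave coordinates and exon lengths, and lacked 849 of the 46078 identifiers.

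Counts were tested in R 4.3.3 with edgeR 4.0.16 (filterByExpr with minimum count 10 and minimum total 15, TMM, quasi-likelihood F-test without robust weighting, two-sided, Benjamini-Hochberg over 15937 genes, threshold 0.05). SEs were taken from the F statistic. Log2 CPM used a prior count of 2. The biological coefficient of variation was 0.549. Single values were compared with exact permutation tests over all splits into 4 and 5 libraries, and differences between receptors of a family were added after values were seen. Nothing in the labels says that every library came from separate mice, so p-values measure the spread between these samples. No libraries of one fraction were copies (chi-square per degree of freedom of 39.8 to 569). The edgeR step was tested on simulated data. Alternatives used DESeq2 1.42.0, limma 3.58.1, other scalings, filters and left-out libraries. Python 3.11.15 and matplotlib 3.10.9 made the figures.

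The receptors and gene lists were chosen with earlier results of these data known, and gene lists were written from general knowledge. Named beyond the 10 receptors were up to 3 related receptors and 2 genes per role in each direction with the largest difference (adjusted p under 0.05, average log2 CPM of at least 1 for receptors and 3 for roles, no overlap between fractions), the 3 genes most like F2r, F2rl2 and P2ry12, the sort's own genes Ly6a and Pecam1, and genes overlapping a receptor. Cdh5 was picked as a defining marker. Where a symbol had more than one identifier, that in GENCODE M21 was used. A related receptor and a role that these rules select are not reported here.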

Additional observations from a re-analysis of the deposited data

Results flagged for a closer look

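In 2 of the 20 sets of libraries looked at (10 receptors in each fraction), 1 library lay apart from the others of its fraction by Dixon's test, where chance gives about 1 in 20. Tbxa2r was at 3.72 log2 CPM in Sca-1+ library 19, from 338 counts, while the other Sca-1+ libraries were at 4.90 to 5.02. Library 19 is also the Sca-1+ library with the most plasma cell, B cell and neutrophil counts, given above. Ptgir was at -3.12 log2 CPM in Sca-1+ library 13, from 1 count, while the others were at 0.29 to 0.87.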

How the results depend on the processing

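The 6 receptors called lower kept their direction and stayed under an adjusted p of 0.05 under each of the 21 alternatives, with a highest adjusted p of 0.015 for F2rl3. Leaving aside the scaling to endothelial markers, their log2 fold changes ranged from -12.07 to -9.83 for F2rl2, -3.09 to -2.08 for F2rl3, -9.76 to -7.39 for P2ry1, -11.09 to -10.12 for P2ry12, -7.09 to -6.21 for P2rx1 and -7.81 to -6.56 for Ptgir. Scaling to 25 endothelial markers shifted the median of all genes by -4.79 and called 14333 genes lower and 181 higher. It gave -5.28 for F2r, -5.60 for F2rl1, -5.78 for Tbxa2r and -5.98 for Adra2a, and 10 receptors, 19 related receptors and 102 signalling genes lower, with 1 related receptor and 0 signalling genes higher. Library size alone shifted the median by 0.36, called 4158 genes higher and 2431 lower (3721 and 3416 with TMM), and turned F2r to 0.30. F2r was at 0.01 without libraries 19 and 22, and Adra2a at 1.93 in limma voom. The cause was not tested. With 1 library left out, F2r ranged from -0.37 to 0.02, F2rl1 from -1.41 to 0.11, Tbxa2r from -0.88 to -0.45, and related receptors called lower from 2 to 4, the 2 without Sca-1- library 16. Leaving out Sca-1- library 8 shifted the median of all genes by -0.11.

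The replicate block for libraries 15 and 16, which share a number in their titles, changed no call among the 10 receptors and gave 6847 called genes, against 7137 without it. No analysis pairing all libraries was possible because no replicate number occurs in both fractions. In 2 fits added after the data were seen, a replicate block for consecutive end numbers (7 and 8, 13 and 14, 15 and 16, a pairing the labels do not state) gave 6180 called genes, 0.01 for F2r and 1.40 for Adra2a, and a term for the stem CD452 gave 6408 called genes and 0.06 for F2r. Both kept the 6 calls. Levels relative to markers kept their call in 194 of 200 values. Beyond those given above, P2ry12 relative to the median megakaryocyte marker differed by -1.12 (adjusted p = 0.020 in the exact permutation test). Adra2a relative to endothelial markers differed by -4.88 without Sca-1- library 16 (adjusted p = 0.036 in the exact permutation test). Of 90 values for differences within a family, added after the data were seen, 87 kept their call, and F2rl1 minus F2r, which ranged from -1.14 to 0.28 with 1 library left out, turned to 0.28 without Sca-1+ library 13 and 0.09 without Sca-1- library 8.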
